A study of Mus musculus and Homo sapiens with 9 samples.

Results

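The mitochondrial ribosomal protein genes, named MRPL for the large and MRPS for the small subunit, were followed in 2 RNA-seq tables of a study of IRF2BP2, a transcriptional cofactor studied in T cell acute lymphoblastic leukaemia (T-ALL). Members were chosen by symbol alone: every protein-coding row whose symbol is MRPL or MRPS followed by a number (Mrpl or Mrps in the mouse). In the human table, the rule was met by 78 genes, 49 MRPL and 29 MRPS, among 64252 rows, and all 78 were among the 15819 genes tested. In the mouse table it was met by 77 genes, 48 Mrpl and 29 Mrps, among 43432 rows, and all 77 were among the 15350 genes tested. The annotation lists 1 more mouse gene, Mrpl33, which had no row under its identifier and was not analysed here. The members lie on 21 human and 17 mouse chromosomes.

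The human libraries came from J.gamma1 cells, an established T-ALL line derived from Jurkat. The cells carried a lentiviral hairpin, either the non-targeting shNC (2 libraries) or shIRF2BP2 (2 libraries), and both groups were selected with puromycin. Which of the study's hairpins against IRF2BP2 the sequenced cells carried is not given in the sources used here. The mouse libraries came from splenic CD3+ T cells, separated with magnetic beads from animals killed at 6 weeks of age. The 2 Irf2bp2 KO libraries were from Vav-iCre+/-;Irf2bp2fl/fl mice, in which Vav-driven Cre deletes the floxed gene throughout the blood lineage and not in T cells alone. The 3 wild type libraries were, by the study's text, from Vav-iCre-/-;Irf2bp2fl/fl mice, so that both groups carried the floxed alleles. Nothing in the labels says whether the J.gamma1 libraries came from separate infections or the mouse libraries from separate animals, and p-values measure the spread between these libraries only.

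Total counts were 26648204 to 31120236 in J.gamma1 and 16668577 to 37177523 in mouse, where wild type library 3 was the shallowest. The targeted genes followed their labels. IRF2BP2 had 202 ± 4.04 CPM (counts scaled to library size; SD, n = 2) with shNC and 86.4 ± 10.5 with shIRF2BP2. Irf2bp2 had 4145, 4594 and 1915 counts in the wild type libraries and 0 in both KO libraries. All 10 T cell markers examined were detected in every library of both species. In the mouse table, erythroid markers summed to 596 to 2260 CPM in wild type and 4453 to 6264 CPM in KO libraries, proliferation genes to 616 to 873 and 1854 to 2087 CPM, and T cell markers to 4177 to 5312 and 3225 to 3484 CPM. None of these 3 sums overlapped between the mouse groups. B and plasma cell markers, at 551 to 1249 CPM in wild type and 1143 to 1550 CPM in KO libraries, did overlap. So did myeloid markers, at 146, 391 and 38.4 CPM in wild type libraries 1 to 3 and 142 and 86.7 CPM in KO libraries. The part of all these sums in the mouse values given here was not tested. In a bulk library, a change in the share of a cell type and a change in RNA per cell cannot be told apart.

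The mitochondrial ribosome translates the few messenger RNAs encoded by mitochondrial DNA, all of which encode subunits of the oxidative phosphorylation complexes. Its ribosomal RNAs come from mitochondrial DNA, but every one of its proteins is encoded in the nucleus, made in the cytosol and imported. A core of these proteins has bacterial counterparts, and the rest are specific to mitochondria. The genes are expressed in every nucleated cell type and are often counted among housekeeping genes. Symbols do not always match position: MRPS30 and MRPS18A sit in the large subunit, and MRPS36 is now known as a component of the 2-oxoglutarate dehydrogenase complex.

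All members were expressed in the control libraries of both species, at a moderate level. On a per-length scale (TPM, with each gene's longest protein-coding transcript as its length), the 78 human members ranged from 17.0 to 293 TPM around a median of 83.1 TPM in shNC cells, and 49 of them lay within 2-fold of that median. The 77 mouse members ranged from 5.45 to 201 TPM around a median of 35.6 TPM in wild type T cells, 51 of them within 2-fold of it. The lowest count of any member in any library was 167 in J.gamma1 and 55 in mouse, so no member rested on a handful of reads.

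**Figure D1:**
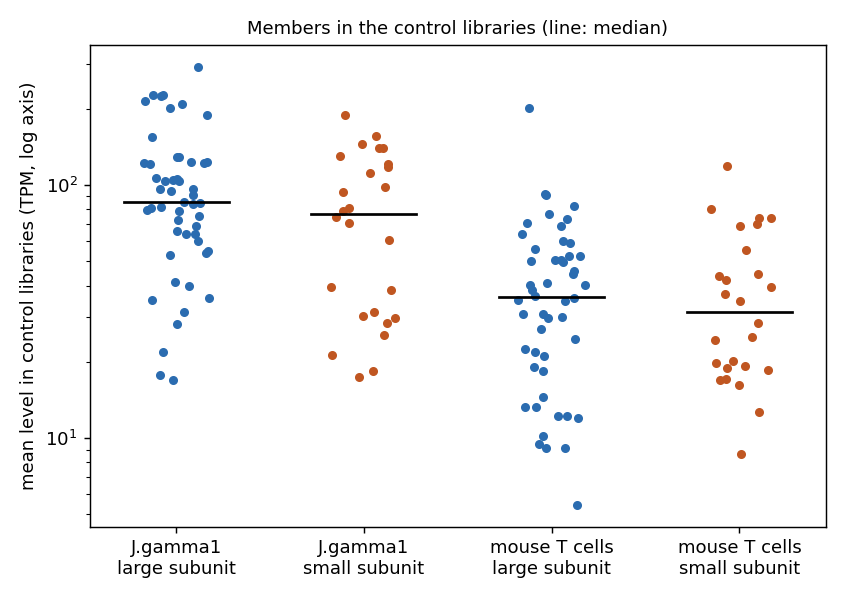
Mean level in the control libraries (TPM, log axis) of each member except MRPS36 and Mrps36, as a point, by species and subunit, with the median as a line. The human members lie between 17.0 and 293 TPM and the mouse members between 5.45 and 201 TPM. The highest small subunit genes are MRPS24 at 190 TPM in J.gamma1 and Mrps21 at 119 TPM in mouse, both below the highest large subunit gene.

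The human member with the highest level was MRPL3, a core protein of the large subunit, at 293 ± 15.2 TPM (SD, n = 2). It was followed by MRPL18 at 226 ± 5.70 TPM, MRPL51 at 226 ± 11.3, MRPL37 at 224 ± 3.24 and MRPL12, the factor-binding stalk protein, at 214 ± 1.57. MRPL18, MRPL51 and MRPL37 differed by less than their spread. The same 5 genes led when the union of all exons was used as the length. The order at the lower end depended on that choice: MRPL42, MRPS18B, MRPL50, MRPS33 and MRPS23, at 17.0 to 21.4 TPM, had the lowest levels by the longest transcript, and none of these 5 was among the lowest 5 by exon union. In mouse T cells Mrpl24 led at 201 ± 10.3 TPM (SD, n = 3), ahead of Mrps21 at 119 ± 23.2 TPM and of Mrpl42, Mrpl9 and Mrpl23 at 82.2 to 91.6 TPM. Only 2 of these 5 led by exon union. Mrpl17, Mrps25, Mrpl47, Mrpl35 and Mrpl53 had the lowest levels, 5.45 to 9.45 TPM, and only 1 of these 5 was among the lowest 5 by exon union. Across the 77 genes in both tables, the control levels of the 2 species had a Spearman correlation of 0.188 by longest transcript and 0.0489 by exon union, a description across genes, which share libraries and are not independent.

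After IRF2BP2 knockdown in J.gamma1 cells, 7 of the 78 members fell and none rose (edgeR quasi-likelihood test, Benjamini-Hochberg adjusted p under 0.05 over all genes tested). Over all 15819 genes tested, 5.32% were called lower and 5.83% higher. At an unadjusted p under 0.05, 21 members were lower and 1 was higher, where the background was 13.4% and 14.3%. DESeq2 called 8 members lower and 0 higher. It called 4.04% lower of the 27082 genes for which it gave a p-value, a wider base than the 15819 genes, so the 2 shares are not alike. The 7 were MRPS35, MRPL57, MRPL24, MRPL27, MRPL43, MRPL18 and MRPL16, so that 6 of the 51 proteins of the large subunit and 1 of the 26 of the small subunit were lower. By subunit class, 4 of the 7 (MRPL24, MRPL27, MRPL18 and MRPL16) were listed among the 46 members with bacterial counterparts. The other 3 (MRPS35, MRPL57 and MRPL43) were among the 31 listed as specific to mitochondria.

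**Figure D2:**
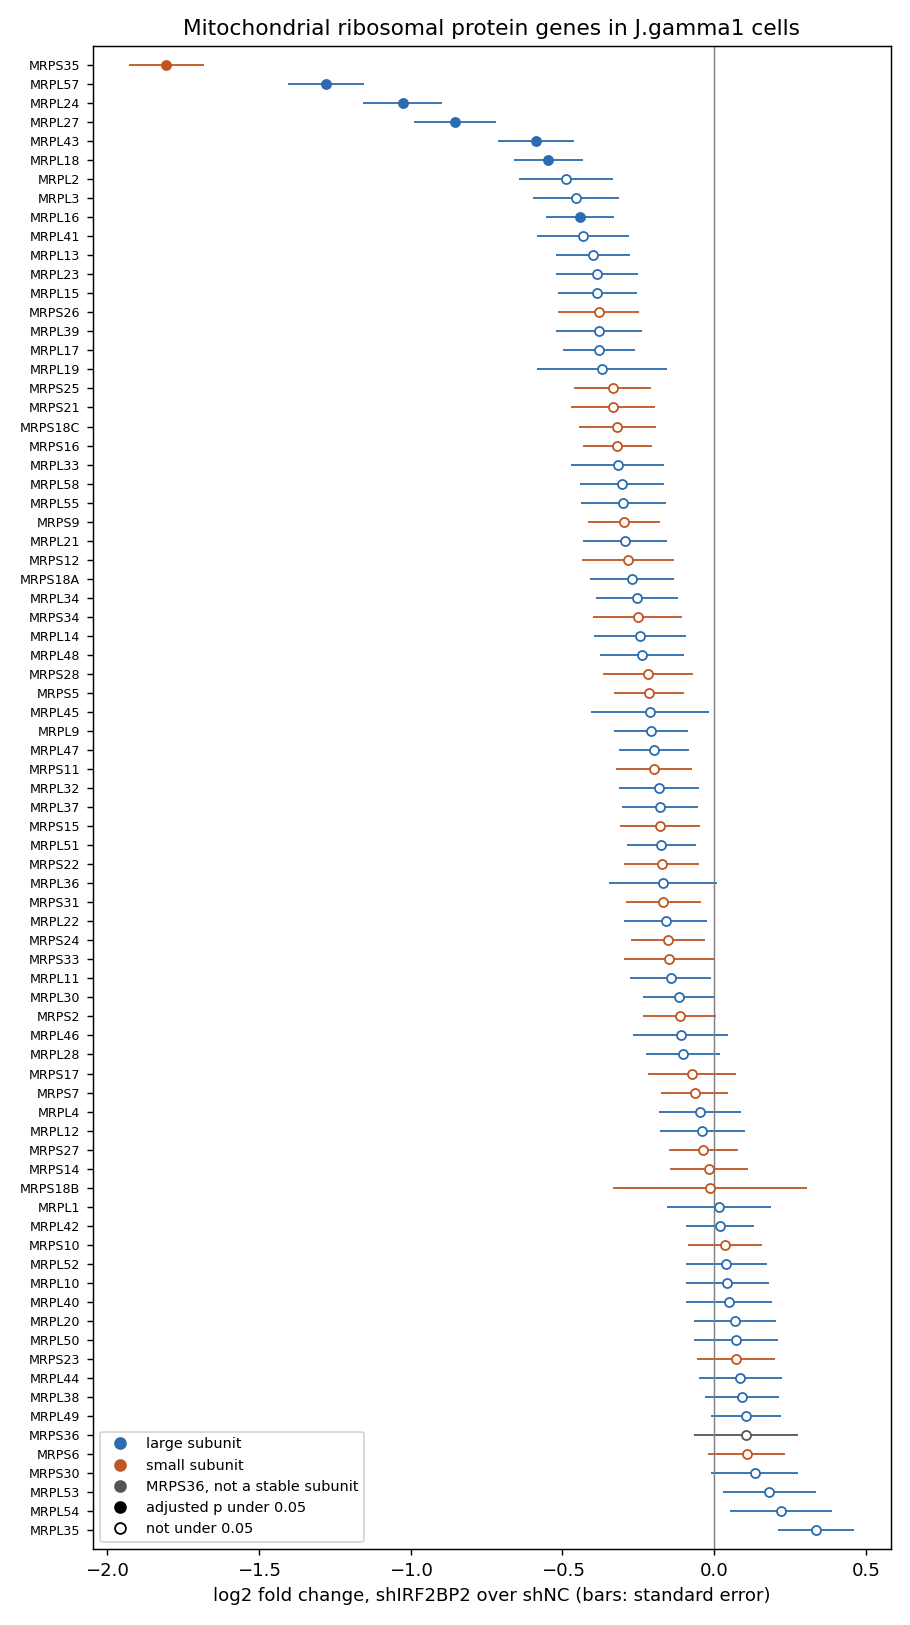
Log2 fold change of each of the 78 members in J.gamma1 cells (shIRF2BP2 over shNC; bars are standard errors), ordered from the lowest at the top to the highest at the bottom; filled points passed the adjusted p of 0.05. MRPS35, MRPL57, MRPL24 and MRPL27 stand below the other members, which form a continuous series from -0.59 to 0.33.

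MRPS35, a mitochondria-specific protein of the small subunit (ENSG00000061794, chr12:27710822-27756295, plus strand, hg38), had the lowest fold change. Its level was 106 and 100 CPM in the shNC libraries and 31.0 and 27.95 CPM in the shIRF2BP2 libraries, from 2745, 3102, 903 and 824 counts. The fitted level in the knockdown group was 28.6% of that in the control group, a log2 fold change of -1.80 with a standard error of 0.12 (edgeR adjusted p = 0.0007).

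MRPL57, a small mitochondria-specific protein of the large subunit (ENSG00000173141, chr13:21176658-21179084, plus strand), had 57.0 and 60.9 CPM with shNC and 24.3 CPM in both shIRF2BP2 libraries. Its log2 fold change was -1.28 ± 0.12 (SE; edgeR adjusted p = 0.0017). MRPL57 has 5 named pseudogenes in the annotation and MRPS35 has 2, and reads shared with them would be assigned by the authors' counting.

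MRPL24, a core large subunit protein with a bacterial counterpart (ENSG00000143314, chr1:156737303-156741590, minus strand), had 49.6 and 48.6 CPM with shNC and 23.0 and 25.2 CPM with shIRF2BP2. The fitted level in the knockdown group was 49.1% of control (log2 fold change -1.03 ± 0.13 SE, edgeR adjusted p = 0.0037).

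MRPL27, whose bacterial counterpart reaches towards the peptidyl transferase centre (ENSG00000108826, chr17:50367857-50373207, minus strand), had 33.6 and 35.2 CPM with shNC and 19.4 and 18.7 CPM with shIRF2BP2. Its log2 fold change was -0.85 ± 0.13 (SE; edgeR adjusted p = 0.0086). For these 4 genes the call held with DESeq2, with each other scaling, filter and fold threshold tried, with the replicate block and without any of the 4 libraries.

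The remaining 3 were lowered to fitted levels of 66.6% to 73.6% of control. MRPL43 (chr10:100969458-100987515, minus strand) had 45.0 and 47.5 CPM with shNC and 30.4 and 31.2 CPM with shIRF2BP2, a log2 fold change of -0.59 (adjusted p = 0.024). Its exons share bases with SEMA4G and with TWNK on the other strand, and TWNK, the mitochondrial DNA helicase, was itself lower, at 51.8 ± 5.56 and 33.6 ± 5.34 CPM (adjusted p = 0.042). MRPL18 (chr6:159789812-159798436, plus strand) had 86.6 and 89.7 against 62.4 and 58.3 CPM, a log2 fold change of -0.55 (adjusted p = 0.023). MRPL16 (chr11:59806140-59810778, minus strand) had 88.4 and 87.3 against 63.6 and 65.6 CPM, a log2 fold change of -0.44 (adjusted p = 0.042). The calls of these 3 were lost without either shIRF2BP2 library, with adjusted p-values of 0.089 to 0.24, while their log2 fold changes stayed between -0.62 and -0.45. MRPL16 does not reach the log2 fold threshold of 0.5, which leaves 6 members called. The 3 calls were also lost with a filter of 1 count in a single library, with adjusted p-values of 0.056 to 0.082. In each of the 7 genes, both knockdown libraries were below both control libraries, as for 28.7% of all genes tested. The 7 were called in these same libraries, so this separation is not separate evidence of a change.

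**Figure D3:**
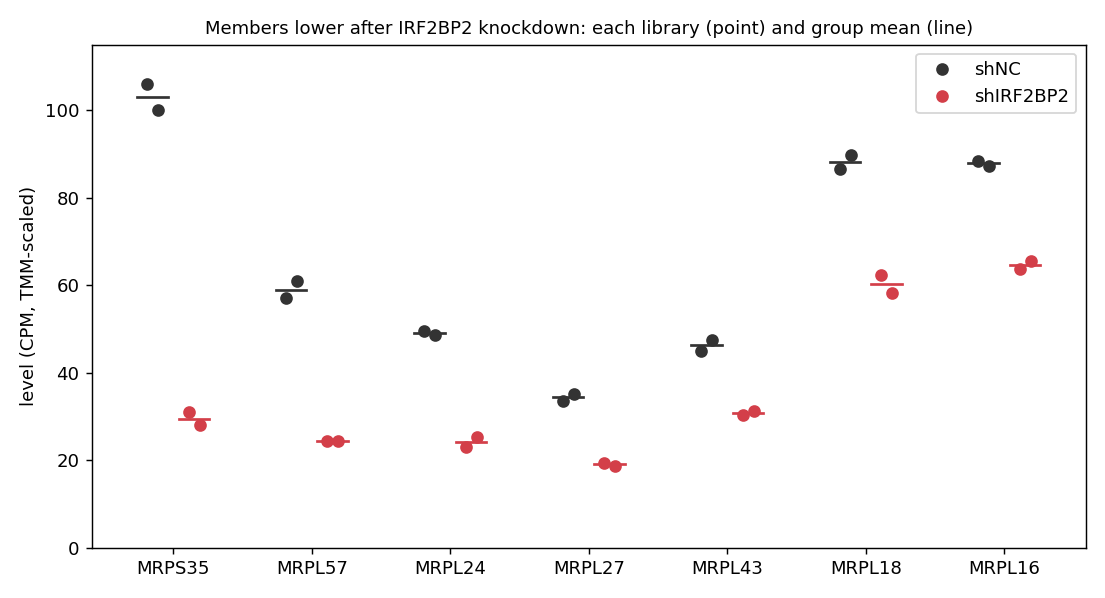
Level (CPM, scaled between libraries) of the 7 members called lower in J.gamma1, in each shNC (black) and shIRF2BP2 (red) library, with group means as lines. The groups do not overlap for any of the 7, which were called in these same libraries. MRPS35 goes from about 103 to 29.5 CPM, MRPL16 from 87.8 to 64.6.

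The 71 members that were not called had a median log2 fold change of -0.17, with 53 negative. Both shIRF2BP2 libraries lay below both shNC libraries for 41 of these 71 and above them for 4. With the 7 called members included, the median log2 fold change over the 78 members was -0.18, against 0.01 over all genes tested, and 60 of 78 were negative, against 49.4% of all genes. Both shIRF2BP2 libraries lay below both shNC libraries for 48 members, against 28.7% of all genes, and above them for 4, against 29.6%. From the lower to the upper quartile the members had log2 fold changes from -0.32 to -0.02. The standard error of a single member had a median of 0.13.

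Large subunit members had a median of -0.20, with 37 of 51 negative, and small subunit members of -0.18, with 23 of 26 negative. By the same listing, large subunit proteins with bacterial counterparts had a median of -0.25 (26 of 30 negative), and mitochondria-specific ones of -0.11 (11 of 21 negative). In the small subunit the corresponding medians were -0.19 (14 of 16 negative) and -0.17 (9 of 10). No test was made between these classes.

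Per library, members summed to 4312 and 4368 CPM with shNC and to 3918 and 3596 CPM with shIRF2BP2. Both subunits showed the same order, the large subunit summing to 2848 and 2872 against 2608 and 2371 CPM, and the small subunit to 1449 and 1481 against 1293 and 1210 CPM. These sums include the 7 called members, among them MRPS35 of the small subunit, with means of 103 CPM with shNC and 29.5 CPM with shIRF2BP2. The 2 knockdown libraries were not equally low: 47 of the 78 members had their lowest value in shIRF2BP2 library 2 and 13 in library 1. Without library 2 the median of the members was -0.14, and without library 1 it was -0.27.

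**Figure D4:**
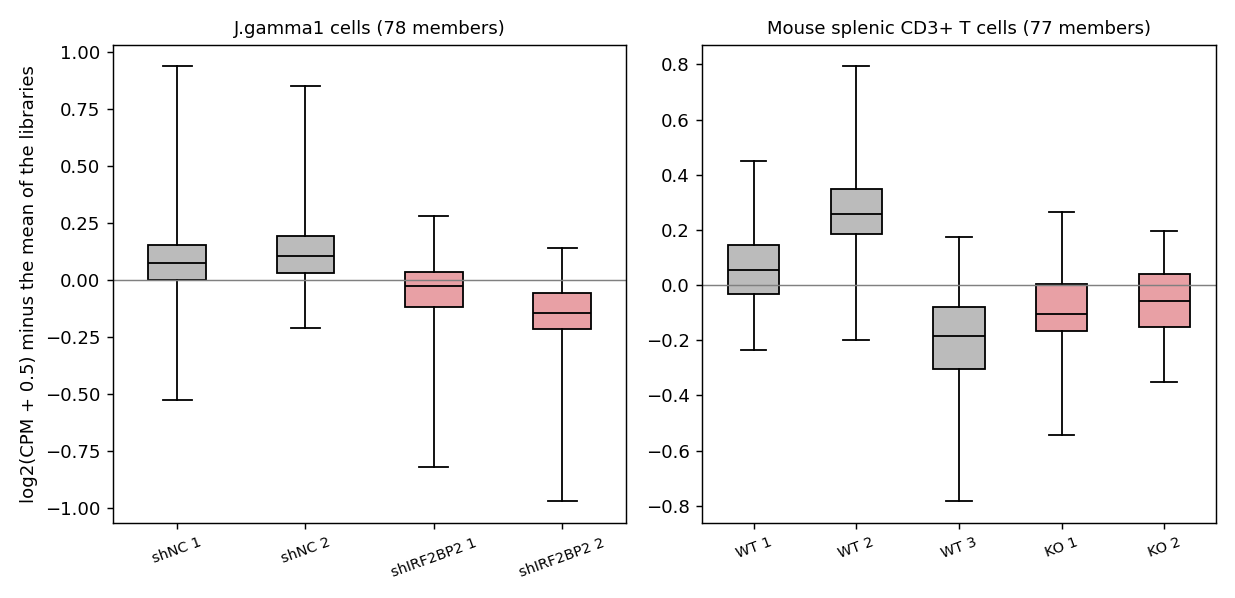
Deviation of each member from its own mean over the libraries (log2 of CPM + 0.5) in every library, as boxes from the lower to the upper quartile with the median inside and whiskers to the extremes; wild type and shNC libraries are grey. In J.gamma1 both shNC medians (0.07 and 0.11) lie above both shIRF2BP2 medians (-0.03 and -0.15), whereas the mouse wild type medians run from -0.18 to 0.26 and enclose both KO medians (-0.10 and -0.06).

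Several members of known function showed no call. MRPL3, the most abundant member, had 209 and 194 CPM with shNC and 163 and 131 with shIRF2BP2, a log2 fold change of -0.46 (adjusted p = 0.081), and was called lower with DESeq2 (adjusted p = 0.027). MRPL12, which forms the stalk where translation factors bind, had -0.04, and MRPL11, at the base of that stalk, had -0.14. MRPS12, a protein of the decoding centre, had -0.28 and MRPL58, the peptidyl-tRNA hydrolase built into the large subunit, had -0.31. MRPL44 had 0.09 and MRPS22, in which mutations cause mitochondrial disease, had -0.17. Their adjusted p-values were 0.20 or more, MRPL3 excepted.

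The 3 paralogues MRPS18A, MRPS18B and MRPS18C descend from the same bacterial ancestor and occupy different places in the ribosome. In the classes used here, only MRPS18C was listed with a bacterial counterpart, and MRPS18A and MRPS18B as specific to mitochondria. Those classes are thus not a strict split by descent. MRPS18A and MRPS18C had log2 fold changes of -0.27 and -0.32 (adjusted p = 0.25 and 0.15). MRPS18B had 6.45 and 13.2 CPM in the shNC libraries and 9.69 and 9.84 with shIRF2BP2. It had the largest standard error of all members, 0.32, and its 2 control libraries differed by more than the groups did. It lies in the major histocompatibility region of chromosome 6, which has alternative assemblies in hg38, and rows with identifiers outside the annotation used here were not assigned to a gene.

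No member passed the threshold upwards. The highest was MRPL35, a core large subunit protein, with 59.7 and 59.9 CPM in shNC and 81.5 and 69.3 CPM in shIRF2BP2 libraries, a log2 fold change of 0.33 ± 0.13 (SE; edgeR adjusted p = 0.13). It was the only member with an unadjusted p under 0.05 in this direction. MRPL54, MRPL53, MRPS30, MRPS6 and MRPS36 followed, with log2 fold changes of 0.10 to 0.22 and adjusted p-values of 0.44 to 0.74. MRPS36 was thus 1 of 18 members with a positive value, at 15.2 and 14.9 against 17.34 and 14.96 CPM, values that overlap.

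The other genes of mitochondrial translation were listed in the same way. Of 5 ribosomal subunits without an MRP symbol (DAP3, PTCD3, CHCHD1, AURKAIP1 and GADD45GIP1), none passed the test and 4 were negative. The lowest was GADD45GIP1, at 90.0 ± 6.31 CPM with shNC and 67.6 ± 3.99 with shIRF2BP2 (SD, n = 2; adjusted p = 0.065). Among 21 assembly factors 1 was lower, RPUSD4, a pseudouridine synthase of the mitochondrial large ribosomal RNA, at 53.6 ± 0.443 and 31.1 ± 0.0665 CPM (log2 fold change -0.79, adjusted p = 0.0076). Their median was -0.20. Of the 17 mitochondrial tRNA synthetases 2 were called lower, and the median of the list was -0.23. None of 16 translation factors passed the test (median -0.13), and of 9 genes for mitochondrial DNA maintenance and transcription only TWNK did.

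The templates of the mitochondrial ribosome had values of the other sign. The 13 messenger RNAs encoded by mitochondrial DNA had a median log2 fold change of 0.32, with 12 of 13 positive, and none was called in either direction. They summed to 40533 and 27725 CPM with shNC and to 41399 and 37622 CPM with shIRF2BP2, so the groups overlapped and shNC library 2 stood apart. Proteins of the cytosolic ribosome had a median of -0.29 with 77 of 78 negative and 6 called lower. Of 15 proliferation genes 14 were negative, 3 called lower, with a median of -0.31. Of 9 nuclear regulators listed for mitochondrial genes, 8 were tested. MYC was lower, at 247 ± 47.3 and 148 ± 28.5 CPM (adjusted p = 0.040), and ESRRA, an oestrogen-related receptor, was higher, at 32.5 ± 1.69 and 54.6 ± 5.04 CPM (adjusted p = 0.013). The part of these lists in the values of the members was not tested.

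The word GGTCTA was taken from an earlier look at these same libraries, where genes holding it in the transcript were lower in the knockdown cells as a class, so its counts here are not independent evidence. In the canonical transcripts of 78 members, 7 held the word in the 3' UTR and 7 in the coding sequence, 13 in either (16.7%, against 27.3% of the 12738 protein-coding genes tested). Of these 13 members 4 were called lower, and of the 65 members without the word in either region 3 were. MRPS33, among the 65, held the word elsewhere in its transcript. Over all protein-coding genes tested, 12.1% of those with the word in these regions and 4.10% of those without it there were called lower. With the word in the 3' UTR, 1 of 7 members was called lower, against 14.8% of all such genes. With the word in the coding sequence, 3 of 7 were, against 9.89%. MRPS35 held the word in the 3' UTR, and MRPL24, MRPL27 and MRPL18 in the coding sequence. No annotated transcript of MRPL57 (1), MRPL43 (14) or MRPL16 (4) held it. The 13 members had a median log2 fold change of -0.32, with 10 negative. The remaining 65 had a median of -0.17, with 50 negative.

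The sites of the 4 lowered members are shown with that of MRPL42, whose 3' UTR holds the word at 2 positions and whose level did not fall (104 and 108 CPM with shNC, 109 and 106 CPM with shIRF2BP2). Each window is 30 bases of the transcript, written 5′ to 3′ as DNA, with the word in capitals and hg38 coordinates. They lie at chr12:27755653-27755682 (plus strand, MRPS35, 3' UTR), chr1:156737396-156737425 (minus, MRPL24, coding), chr17:50368216-50368245 (minus, MRPL27, coding), chr6:159797467-159797496 (plus, MRPL18, coding) and chr12:93513527-93513556 (plus, MRPL42, 3' UTR).
MRPS35: tgatttcttcttGGTCTAaagtgttttgat
MRPL24: gaaatacaagaaGGTCTAttggtattgagc
MRPL27: ctacactaaggaGGTCTAcgtgcctcatcc
MRPL18: aatcaacttcatGGTCTAccaaccaacccc
MRPL42: agtatatctaatGGTCTAataaacagaatc

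The word is followed by A in MRPS35 and in this site of MRPL42, and preceded by A in MRPL24 and MRPL27. The extended form GGTCTAA occurs in MRPS35 and MRPL42, and AGGTCTA in MRPL24, MRPL27 and the other site of MRPL42, among further members. MRPL42 was picked after its values were seen, as a member with the word whose level did not fall. Whether the word has any part in the levels was not tested, and a match of 6 letters is a description of the transcript, not a site of action.

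Members share promoter features that the symbol rule did not use. In the stretch from 250 bases before to 50 after the start of the canonical transcript (hg38, both strands), the ETS family word CCGGAAG occurred in 32 of 78 members (41.0%), against 14.1% of 20046 protein-coding promoters. The YY1 word AAGATGG occurred in 25 (32.1%, against 6.42%) and the NRF1 word GCGCATG in 8 (10.3%, against 5.81%). ETS factors of the GABP type, YY1 and NRF1 are textbook regulators of nuclear genes for mitochondria. The E-box CACGTG occurred in 7 members (8.97%, against 8.75%) and the TATA word TATAAA in 4 (5.13%, against 9.71%). CCGGAAG ends and AAGATGG begins with AAG, so the pair can share bases. In the mouse, 68 members matched a promoter of RefSeq (GRCm38.p6, the same window) by symbol. There CCGGAAG occurred in 36.8% of members against 12.9% of 17491 promoters, AAGATGG in 19.1% against 7.18% and GCGCATG in 10.3% against 5.39%. These shares take no account of base composition.

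ETS1 and ELF1, both ETS factors, are among the proteins the study examined beside IRF2BP2, so the promoters of the 4 members with the lowest fold changes are shown, 120 bases before to 30 after the start, with the ETS, YY1 and NRF1 words on either strand in capitals. They lie at chr12:27710712-27710861 (plus strand, MRPS35), chr13:21176538-21176687 (plus, MRPL57), chr1:156741059-156741208 (minus, MRPL24) and chr17:50373155-50373304 (minus, MRPL27).
MRPS35: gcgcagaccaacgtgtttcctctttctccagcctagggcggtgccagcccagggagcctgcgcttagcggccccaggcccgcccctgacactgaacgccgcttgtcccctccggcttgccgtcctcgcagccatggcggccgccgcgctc
MRPL57: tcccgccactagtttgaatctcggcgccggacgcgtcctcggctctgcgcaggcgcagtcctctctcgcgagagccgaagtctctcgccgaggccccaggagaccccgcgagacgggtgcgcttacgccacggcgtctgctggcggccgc
MRPL24: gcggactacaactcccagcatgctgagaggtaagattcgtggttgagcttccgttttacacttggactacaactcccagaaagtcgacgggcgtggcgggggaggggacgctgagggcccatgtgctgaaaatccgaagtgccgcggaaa
MRPL27: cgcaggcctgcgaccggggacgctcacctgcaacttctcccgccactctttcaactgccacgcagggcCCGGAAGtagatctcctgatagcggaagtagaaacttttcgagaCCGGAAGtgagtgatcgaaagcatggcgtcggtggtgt

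MRPL27 held CCGGAAG at 2 positions, and the other 3 promoters held none of the words in the stretch shown. In the wider stretch used for the counts, 4 of the 7 members called lower held CCGGAAG (MRPL27, MRPL43, MRPL18 and MRPL16). There 1 of the 7, MRPL24, held GCGCATG, and 0 held AAGATGG. The absence of these letters says nothing of binding.

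In splenic T cells of Irf2bp2 KO mice, no member was called lower or higher (edgeR, adjusted p under 0.05). Over all 15350 genes, 0.15% were called lower and 2.68% higher. DESeq2 also called 0 members in either direction. At an unadjusted p under 0.05, 5 of the 77 members were lower, near the background of 6.01%, and 0 were higher (background 10.2%). The lowest adjusted p of any member was 0.23. The standard error of a member was larger than in J.gamma1, with a median of 0.20.

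The 5 members, named after their values were seen, were Mrps6, Mrps26, Mrps23, Mrpl10 and Mrpl24. Mrps6, a core small subunit protein, had 13.7, 26.3 and 16.9 CPM in wild type and 10.1 and 12.1 CPM in KO libraries, a log2 fold change of -0.78 ± 0.31 (SE; edgeR adjusted p = 0.28). Its exons share bases with Gm49711 and Slc5a3 on the same strand. Mrps26 had 45.2, 42.7 and 35.5 against 30.2 and 31.1 CPM, Mrps23 had 56.5, 56.5 and 45.6 against 39.6 and 41.4, and Mrpl10 had 55.3, 53.9 and 46.7 against 38.1 and 41.5. Mrpl24, the most abundant mouse member, had 131, 144 and 136 CPM in wild type and 108 and 116 CPM in KO libraries. In all 5, both KO libraries lay below the 3 wild type libraries, as for 17.8% of all genes, and none passed the adjusted threshold. The 5 were picked by their p-values in these same libraries, so this separation is not separate evidence of a change.

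At the other end, Mrps28 had 7.07, 7.99 and 5.51 CPM in wild type and 9.06 and 8.11 CPM in KO libraries, a log2 fold change of 0.32 (adjusted p = 0.62). Mrps22, Mrpl50, Mrpl14, Mrps10 and Mrps27 followed with 0.11 to 0.23. Mrpl41, Mrps12, Mrpl44 and Mrps21 had log2 fold changes of -0.56 to -0.40 with overlapping groups, except Mrpl41, at 22.1, 25.1 and 15.1 against 14.1 and 14.1 CPM. Their adjusted p-values were 0.33 to 0.52.

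The median log2 fold change over the 77 mouse members was -0.14, against -0.02 over all genes, and 60 of 77 were negative, against 52.1%. Both KO libraries lay below all 3 wild type libraries for 16 members, against 17.8% of all genes, and above them for 1, against 18.2%. The share of members lying apart downwards, 16 of 77, was thus near that of all genes. The size of the median depended on the wild type libraries. Members summed to 2257, 2588 and 1968 CPM in wild type and to 1989 and 2050 CPM in KO libraries, so the KO values lay within the range of the controls. Of the 77 members 58 had their highest value in wild type library 2 and 38 their lowest in wild type library 3. Without wild type library 2 the median was -0.02 with 41 of 77 negative, and without wild type library 3 it was -0.23 with 72 of 77 negative.

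By subunit, the mouse medians were -0.12 for the large subunit (39 of 50 negative) and -0.20 for the small subunit (21 of 26). Mitochondrial translation factors, assembly factors and tRNA synthetases had medians of -0.15, -0.10 and 0.02, with no call among 15, 21 and 17 genes. The 12 messenger RNAs of mitochondrial DNA with a row were all negative (median -0.46), with none called, and summed to 31621, 35783 and 25795 CPM in wild type and 25285 and 22521 CPM in KO libraries. Proteins of the cytosolic ribosome had a median of -0.41, with 75 of 76 negative and none called. The 11 erythroid markers with a row had a median of 2.48 with 5 called higher, and the 15 proliferation genes a median of 1.74 with 8 called higher.

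The values of the 2 perturbations were then set side by side. Of the 77 genes in both tables, 48 had a negative log2 fold change in both, 6 a positive one in both, 11 were negative in J.gamma1 and positive in mouse, and 12 the reverse. The 2 sets of fold changes had a Pearson correlation of 0.02 and a Spearman correlation of 0.02 across genes, given as a description. MRPS35, at -1.80 in J.gamma1, had -0.08 ± 0.16 (SE) in the mouse, from 28.6, 28.2 and 23.7 CPM in wild type and 26.2 and 24.7 CPM in KO libraries. MRPL57 had -1.28 and -0.16 ± 0.37, and MRPL24 -1.03 and -0.29 ± 0.12. The systems differ in species, cell, depth and mode of loss, which cannot be told apart here, and the difference between them was not tested.

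**Figure D5:**
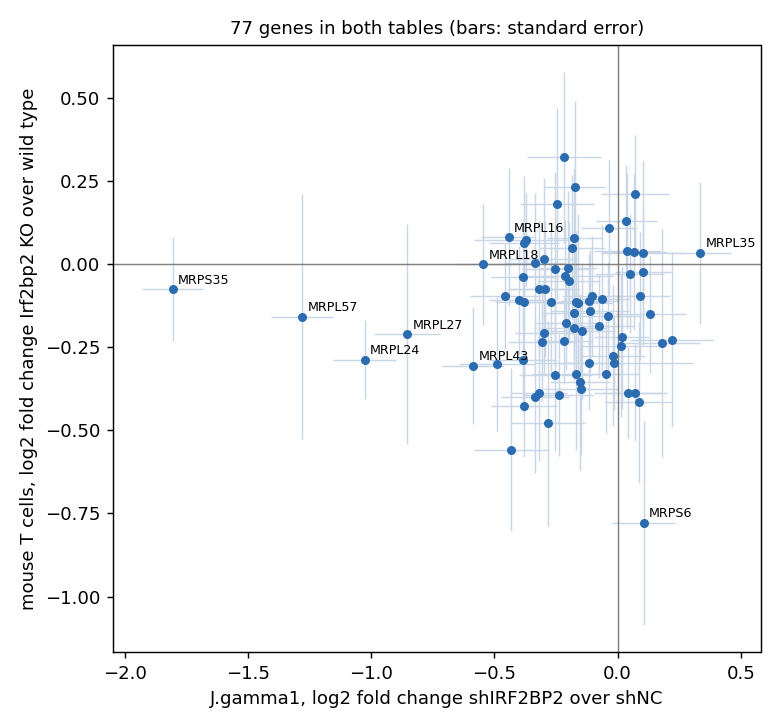
Log2 fold change of each of the 77 members in both tables, J.gamma1 on the x axis (shIRF2BP2 over shNC) and mouse T cells on the y axis (Irf2bp2 KO over wild type), with standard errors as bars and selected genes named. The 4 genes at the left, MRPS35, MRPL57, MRPL24 and MRPL27, lie between -0.29 and -0.08 on the mouse axis, and no slope is visible across the rest.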

How the data were processed

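RNA was extracted with TRIzol and made into libraries with an Illumina TruSeq RNA kit. Per the labels, the authors aligned reads with HISAT2 2.2.0 to hg38 or mm10 and quantified them with StringTie. The deposited values are whole-number counts per Ensembl gene, one table per species, without normalization. StringTie shares reads between overlapping genes, and strand use is not given in the sources used here. Exon bases are shared with another gene by 41 of the 78 human and 32 of the 77 mouse members.

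Rows were matched by identifier to GENCODE v44 (human) or M21 (mouse, GRCm38). The annotated rows held 98.0% of the human counts. Counts of all annotated genes that passed filterByExpr were fitted per species with edgeR 4.0.16 (TMM scaling, quasi-likelihood test, condition only, Benjamini-Hochberg over all genes tested) in R 4.3.3, with calls at an adjusted p of 0.05. The study used DESeq2, with a log2 fold threshold of 0.5 for J.gamma1. DESeq2 1.42.0, that threshold for J.gamma1 and one of 1 for mouse, RLE and upper-quartile scaling, other count filters, all rows, a replicate block and omission of each library were alternatives. The fit was tested on simulated counts. The standard errors given were derived from the edgeR test, as the absolute log2 fold change divided by the square root of its F statistic. CPM and TPM were computed from the counts. Levels in CPM use the TMM-scaled library sizes, and 3 counts equal 0.08 to 0.19 CPM. No 2 replicates were near-identical: every pair differed by more than sampling noise.

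Members and lists were chosen with earlier results of these data known. Named genes are the called members, up to 6 in each direction with the largest fold change at a mean of at least 5 CPM, a panel of 12, and the 5 highest and lowest levels per species; MRPL42 and the 5 mouse members with an unadjusted p under 0.05 were added after their values were seen. Base words were counted in canonical transcripts and promoters. Individual genes of the tRNA synthetase list are not reported here.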

Additional observations from a re-analysis of the deposited data

How the results depend on the processing

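The count of 7 J.gamma1 members called lower (5.32% of all genes lower) was 13 with the replicate block (10.5%). It was 4 when the count filter was relaxed to 1 count in a single library (1.46%). Among members without the word GGTCTA in the coding sequence or 3' UTR it was 3. Of all genes without it there, 3.42% were called lower with non-coding genes included, and 4.10% of the protein-coding ones. Omission of 1 library gave 4 to 11, with 11 without shNC replicate 1 (8.32%), 4 without shIRF2BP2 replicate 1 (2.52%) and 4 without shIRF2BP2 replicate 2 (3.13%). No alternative called a member higher. DESeq2, other scalings, the filter of 10 counts, all rows and the fold threshold gave 6 to 9. The median of J.gamma1 members kept its sign, from -0.27 to -0.14 over all alternatives. No alternative called a mouse member in either direction, and the mouse median ran from -0.23 to -0.02, at -0.21 with the replicate block. In that block wild type library 3 had no KO library of its number, so it did not add to the fitted difference. Without that library the median was -0.23.

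Same-numbered libraries deviated together in J.gamma1 (r = 0.35 across genes) but not in both mouse pairs (0.26 and -0.07); with 2 pairs the numbers were not taken as pairing the samples. With the block, MRPS18B turned to 0.066, Mrpl14 to -0.012, Mrps27 to -0.035 and Mrps36 to -0.10. Omission of 1 library turned the sign of members near 0, whose log2 fold changes then ran from -0.024 to 0.26 for MRPS30, -0.033 to 0.20 for MRPS36, -0.25 to 0.12 for MRPL12, -0.44 to 0.60 for MRPS18B, -0.058 to 0.24 for MRPL44, -0.025 to 0.40 for Mrpl14, -0.013 to 0.22 for Mrps10, -0.041 to 0.21 for Mrps27, -0.25 to 0.10 for Mrps18a, -0.19 to 0.037 for Mrpl3, -0.20 to 0.019 for Mrps18c and -0.14 to 0.33 for Mrps36. None of these was called. By exon union the median control level of members was 74.3 TPM in J.gamma1 (83.1 by longest transcript) and 31.3 TPM in mouse (35.6). The cause of each change was not tested, beyond the fewer samples or genes the alternative itself left.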
